A study of Mus musculus with 24 samples.

Results

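MacB3 macrophages sorted from mouse lungs 2 weeks after tumour cell injection (MacB3-2wk, 3 libraries) were compared with MacA macrophages from lungs of the same week (MacA-2wk, 3 libraries). These 6 of the 24 libraries of the series were picked by their titles alone, and no measured value entered the choice. Per the labels, MacB3 cells were sorted as CD11b+, Ly6G-, CD64hi and CD11c+, and MacA cells as SiglecF+ and CD11c+. Both populations came from male C57BL/6 mice aged 10 to 16 weeks that had received LLC-Luc cells, a luciferase-carrying Lewis lung carcinoma line, in Matrigel into the parenchyma of the left lobe, so both groups carry the tumour. The left lobes with tumours were used, after perfusion with heparin, and tissue of 3 to 5 mice was pooled for each library, so no value belongs to a single animal. Per the labels each group holds 3 independent experiments, so n = 3 per group in every value below. The table covered 37979 genes in FPKM (fragments per kilobase of transcript, relative to the fragments mapped in the library). The scaling options behind the deposited values are not given in the sources used here. Of the 37979 genes, 17156 averaged 1 FPKM or more in some group of the series and were tested.

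Alveolar macrophages live in the air spaces, clear surfactant lipid, depend on the cytokine GM-CSF and the nuclear receptor PPARγ, and carry SiglecF on their surface. Interstitial macrophages, and macrophages that descend from blood monocytes, lie in the tissue and are typically marked by CX3CR1 or CCR2, complement C1q and the transcription factor MAF. In tumours, macrophages of monocyte origin can make chemokines, proteases and growth factors and can present antigen to T cells.

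Library sums were 2477660 to 3856300 FPKM in MacB3-2wk and 2575550 to 4868370 FPKM in MacA-2wk, and absolute depth is unknown. Genes annotated as miRNA took 51.8% to 64.0% of the sum in MacB3-2wk and 61.9% to 75.1% in MacA-2wk, while protein-coding genes took 17.6% to 27.8% in MacB3-2wk and 10.4% to 22.3% in MacA-2wk. Across genes, log2 values correlated at 0.918 to 0.933 between MacB3-2wk libraries. MacA-2wk replicates 1 and 2 correlated at 0.914, and MacA-2wk replicate 3 stood apart, at 0.843 and 0.853 with the other 2. The summed level of 15 fibroblast genes was 143 to 175 FPKM in MacB3-2wk, and 89.4, 84.9 and 642 FPKM in MacA-2wk replicates 1, 2 and 3. List counts without this library are therefore given where they move by 2 genes or by more than 1.5 times. MacB3-2wk libraries were run on lanes 2, 3 and 7 and all MacA-2wk libraries on lane 1, so lane and population cannot be told apart.

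Transcripts of the sorting markers serve as a check, since the gates chose on their proteins, and the lists that hold one are also counted without it, a count added after the data were seen. Siglecf was at 0.190, 5.26 and 3.02 FPKM in the MacB3-2wk libraries and at 142, 171 and 125 FPKM in MacA-2wk. Itgam, which encodes CD11b, was at 366, 251 and 283 FPKM in MacB3-2wk and 24.5, 10.3 and 17.2 FPKM in MacA-2wk, and Fcgr1, which encodes CD64, at 173, 184 and 185 FPKM in MacB3-2wk and 34.6, 36.2 and 30.7 FPKM in MacA-2wk. None of these 3 markers overlapped between the groups. Itgax, which encodes the CD11c that both gates required, was at 73.8, 50.01 and 93.0 FPKM in MacB3-2wk and 168, 190.4 and 98.1 FPKM in MacA-2wk. Its log2 fold change of -1.05 dropped under 2-fold without MacB3-2wk replicate 2 (-0.81), MacA-2wk replicate 1 (-0.95) or MacA-2wk replicate 2 (-0.86). Itgax also lost its call when only the 2 groups compared were fitted (limma adjusted p = 0.0859). Ly6g was listed at 0 in all 6 libraries.

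Genes are written as higher or lower where limma, run on log2(FPKM + 1) over all 24 libraries, gave a Benjamini-Hochberg adjusted p under 0.05 over the 17156 genes together with a change of 2-fold or more. Log2 fold changes are MacB3-2wk minus MacA-2wk on that scale, and the added 1 FPKM makes them too small for genes at low levels. Means are given with the SD over 3 libraries after the ± sign, and SE is the standard error of the log2 fold change. MacB3-2wk had 1235 genes higher (7.2% of those tested) and 1249 lower (7.28%), and a median log2 fold change of -0.06 over all genes. In 2534 genes (14.8%) all 3 MacB3-2wk libraries lay above all 3 MacA-2wk libraries, and in 2981 (17.4%) below them, with or without a call. At 8-fold or more, 190 called genes were higher and 136 lower. Without MacA-2wk replicate 3 the counts were 1285 higher and 1402 lower. The balance of directions depended on how the libraries were scaled. When each library was set to the same sum over protein-coding genes, 839 genes were higher and 2191 lower, the median over all genes moved to -0.32, and the share of calls that were higher moved to 27.7% from 49.7%. The directions given below for gene lists are those on the deposited scale, and lists whose median changes sign under that rescaling are named as such.

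**Figure D1:**
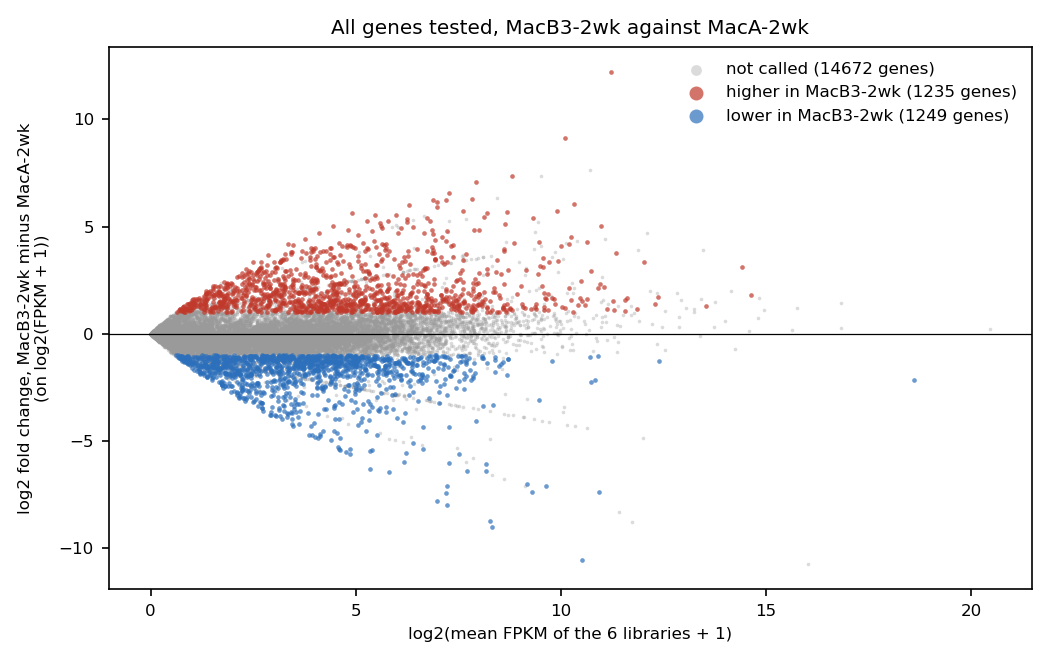
Each point is 1 of the 17156 genes tested. The horizontal axis is log2 of the mean FPKM of the 6 libraries plus 1, and the vertical axis is the log2 fold change, MacB3-2wk minus MacA-2wk. Red points are the 1235 genes called higher in MacB3-2wk and blue points the 1249 called lower, spread over the whole range of levels.

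The highest fold changes among well-measured protein-coding genes belonged to a B cell and myeloid receptor, complement C1q, chemokines, and further genes of myeloid cells or other leukocytes. Cd72 (chromosome 4, 43446462 to 43454628, GRCm38), which encodes an inhibitory C-type lectin receptor, was at 447, 385 and 614 FPKM in MacB3-2wk and 6.35, 0.756 and 2.27 FPKM in MacA-2wk (log2 fold change 7.09, SE 0.538, limma adjusted p = 1.11e-08). Ccl12, a ligand of the monocyte receptor CCR2, was at 299.6, 283 and 324 FPKM in MacB3-2wk and 0, 1.11 and 13.9 FPKM in MacA-2wk (log2 fold change 6.58, SE 0.808, limma adjusted p = 6.01e-06). Aif1, which encodes the actin-binding protein IBA1, was at 437, 433 and 484 FPKM in MacB3-2wk and 7.32, 2.17 and 6.5 FPKM in MacA-2wk (log2 fold change 6.28, SE 0.409, limma adjusted p = 1.84e-09). In each of the 3 genes every MacB3-2wk library lay above every MacA-2wk library by more than 10-fold. Fcrls, an Fc receptor-like gene known in mice as a marker of microglia, averaged 229.7 ± 24.3 FPKM in MacB3-2wk and 2.71 ± 2.65 FPKM in MacA-2wk (log2 fold change 6.23). Ms4a4c, a member of the Ms4a family of membrane proteins, averaged 246 ± 28.8 FPKM in MacB3-2wk and 3.35 ± 3.54 FPKM in MacA-2wk (log2 fold change 6.13). Runx3, a transcription factor of leukocyte lineages, averaged 249 ± 94.7 FPKM in MacB3-2wk and 3.83 ± 4.08 FPKM in MacA-2wk (log2 fold change 5.93), with its MacB3-2wk libraries at 299.6, 139 and 307 FPKM. Pf4, which encodes the chemokine CXCL4, averaged 806 ± 370.5 FPKM in MacB3-2wk and 14.8 ± 6.79 FPKM in MacA-2wk (log2 fold change 5.67). The C1q genes C1qb and C1qa were also among the 10 highest and are described with complement.

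The 10 lowest fold changes were led by genes of the alveolar macrophage. Fabp1 (chromosome 6, 71199827 to 71205023, GRCm38), which binds fatty acids and was first known from liver, was at 0.376, 0 and 0 FPKM in MacB3-2wk and 333, 365 and 185 FPKM in MacA-2wk (log2 fold change -7.99, SE 0.711, limma adjusted p = 9.31e-08). Chil3, which encodes the chitinase-like protein Ym1, was at 26.6, 17.4 and 24.1 FPKM in MacB3-2wk and 3776, 4001 and 3899 FPKM in MacA-2wk (log2 fold change -7.38, SE 0.578, limma adjusted p = 1.68e-08). Plet1, a surface protein of alveolar macrophages and epithelium, was at 5.59, 6.00 and 7.28 FPKM in MacB3-2wk and 1548, 1497 and 724 FPKM in MacA-2wk (log2 fold change -7.36, SE 0.492, limma adjusted p = 2.53e-09). The groups did not overlap in these genes, and MacA-2wk replicate 3 was the lowest MacA library for Fabp1 and Plet1. Marco, a scavenger receptor for bacteria and particles, varied within MacA-2wk, at 718, 411 and 106 FPKM, against 5.68, 2.00 and 1.53 FPKM in MacB3-2wk (log2 fold change -6.42). Car4, a membrane carbonic anhydrase, averaged 7.34 ± 2.06 FPKM in MacB3-2wk and 570.3 ± 214 FPKM in MacA-2wk (log2 fold change -6.07), and Krt19, a keratin, 1.41 ± 1.5 FPKM in MacB3-2wk and 293 ± 55.5 FPKM in MacA-2wk (log2 fold change -7.08). Kcnn3, a calcium-activated potassium channel gene, averaged 0.215 ± 0.164 FPKM in MacB3-2wk and 109 ± 40.9 FPKM in MacA-2wk (log2 fold change -6.43). Krt79, another keratin, was listed at 0 in all 3 MacB3-2wk libraries and at 76.0, 98.0 and 64.7 FPKM in MacA-2wk, so no fold is given. Ear2, an eosinophil-associated ribonuclease gene, averaged 8.01 ± 3.08 FPKM in MacB3-2wk and 1138 ± 201 FPKM in MacA-2wk (log2 fold change -7.03), and its relative Ear1 1.06 ± 1.83 FPKM in MacB3-2wk and 289.9 ± 104 FPKM in MacA-2wk (log2 fold change -7.44). These genes have near-identical copies on chromosome 14, so the level of each is uncertain.

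**Figure D2:**
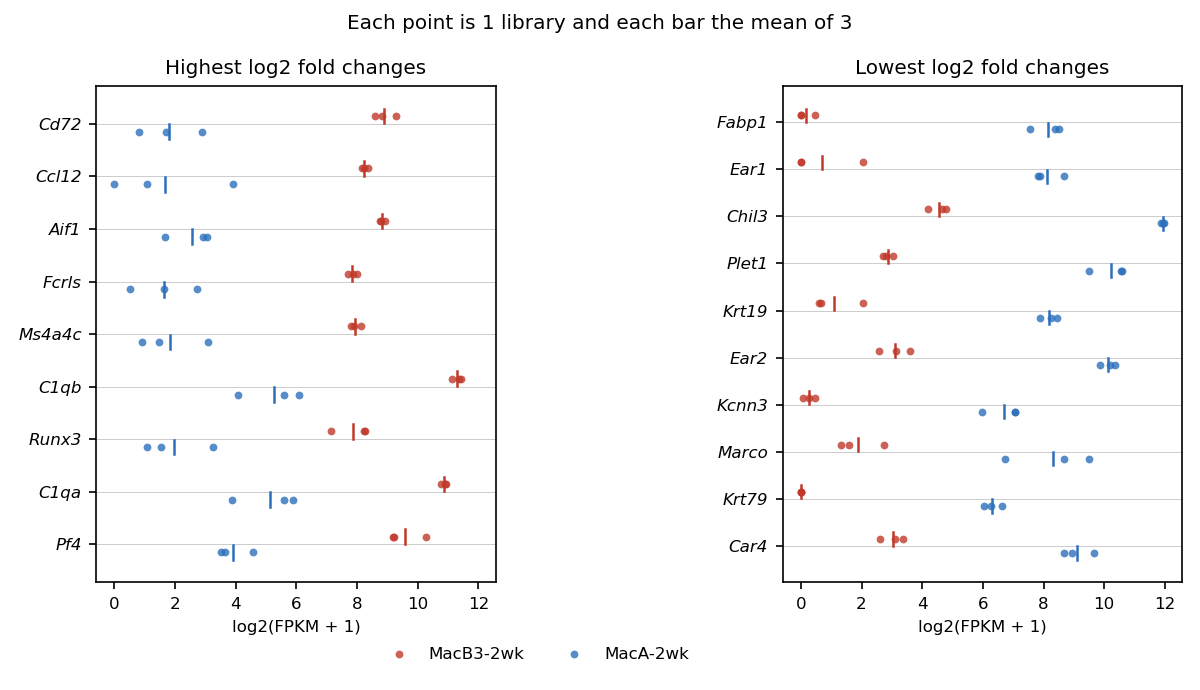
Levels on the log2(FPKM + 1) scale of 9 of the 10 genes with the highest (left) and the 10 with the lowest (right) log2 fold changes that met the naming rule. Each point is 1 library, red for MacB3-2wk and blue for MacA-2wk, and each bar the mean of 3. The groups lie apart in all 19 genes shown.

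Genes were next read in 53 lists of known function or cell type, of which the 4 gate markers and the 9 lists of other cell types serve as checks. Against the background of 7.2% higher and 7.28% lower, the lists of interstitial and monocyte-derived macrophages, classical monocytes, chemokine ligands, interferon-stimulated genes, interferon gamma inducible GTPases and major histocompatibility complex (MHC) class II each had 61.5% to 79.3% of members higher. The lists of alveolar macrophage identity, fatty acid and lipid handling and cholesterol synthesis each had 54.2% to 90.6% of members lower. Where such a list had 0 calls in a direction, limma found 1 CC chemokine ligand lower, and 0 alveolar genes higher and 0 CXC ligands, class II, interferon-stimulated or GTPase genes lower, at an unadjusted p under 0.05. These lists were written with earlier results of these data known, so their counts describe the comparison and were given no test of their own. Listed genes that did not reach the filter, 43 entries in all, were not tested and are left out of the counts.

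**Figure D3:**
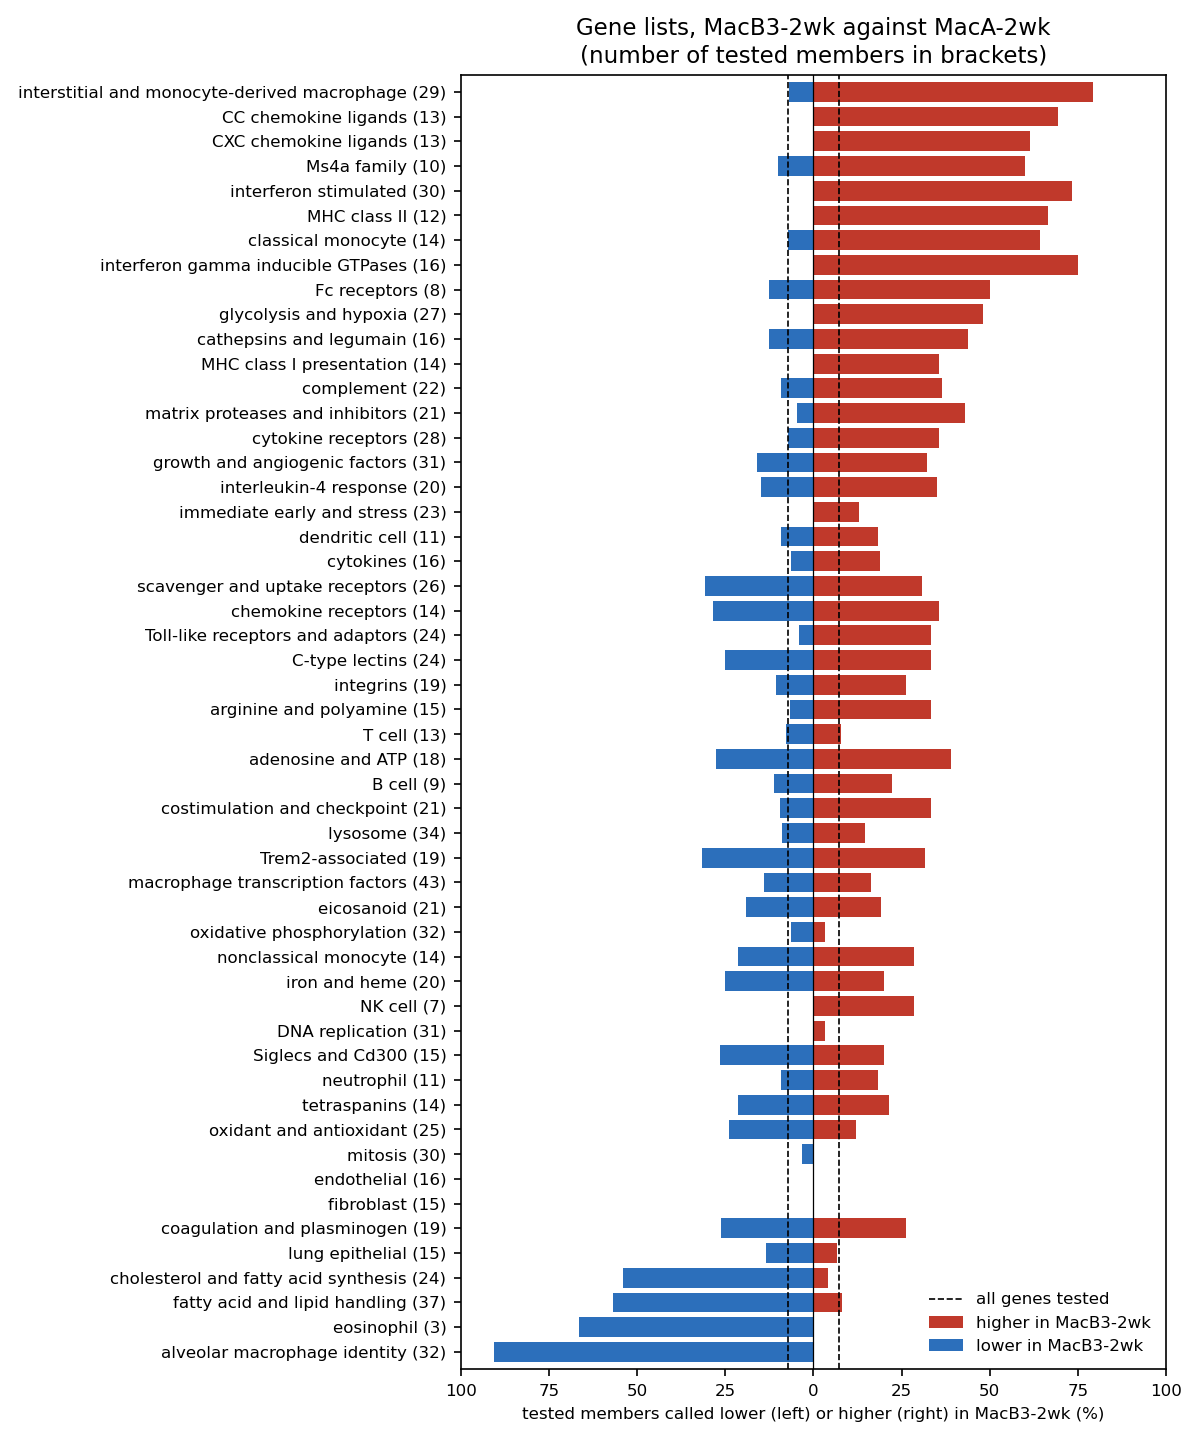
Share of each list's tested members called higher (red, to the right) or lower (blue, to the left) in MacB3-2wk, in percent, with the number tested in brackets. Dashed lines mark the shares over all genes tested, 7.2% higher and 7.28% lower. Lists run down the page by their median log2 fold change, from 4.16 for interstitial and monocyte-derived macrophages to -3.88 for alveolar macrophage identity.

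Alveolar macrophage identity genes were lower almost throughout. Of 32 tested members, 0 were higher, 29 lower and 3 not called, with a median log2 fold change of -3.88 beside -0.06 over all genes. Without the sorting markers Siglecf and Itgax, 27 of 30 were lower. Of the 32, 27 to 31 were lower when 1 library was left out, with 31 without MacA-2wk replicate 3. Cd2, an adhesion receptor best known in T cells and also a mouse alveolar macrophage transcript, was at 3.66, 3.20 and 3.68 FPKM in MacB3-2wk and 336, 352 and 221 FPKM in MacA-2wk (log2 fold change -6.05, SE 0.368, limma adjusted p = 6.60e-10). Abcg1, which exports cholesterol and is needed for surfactant lipid turnover, was at 53.8, 61.2 and 59.5 FPKM in MacB3-2wk and 619, 681 and 470.5 FPKM in MacA-2wk (log2 fold change -3.30, SE 0.188, limma adjusted p = 3.44e-10). Pparg, the nuclear receptor of alveolar macrophage differentiation, was at 4.63, 4.86 and 5.23 FPKM in MacB3-2wk and 85.0, 91.2 and 45.2 FPKM in MacA-2wk (log2 fold change -3.60, SE 0.324, limma adjusted p = 1.12e-07). All 3 genes were lower in every MacB3-2wk library than in any MacA-2wk library. The 3 members that were not called were the GM-CSF receptor genes Csf2ra (log2 fold change -0.18, 95% interval -0.67 to 0.31) and Csf2rb (log2 fold change -0.87) and the repressor gene Bhlhe41 (log2 fold change -1.13). Csf2ra was at 302, 189 and 312 FPKM in MacB3-2wk and 344, 377 and 199 FPKM in MacA-2wk, and the groups overlapped. The list summed to 1610 to 1693 FPKM in the MacB3-2wk libraries and to 13261 to 17540 FPKM in MacA-2wk, lowest in MacA-2wk replicate 3. In sorted bulk samples, fewer cells of a type and less RNA per cell cannot be told apart.

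Genes of interstitial and monocyte-derived macrophages went the other way, with 23 of 29 tested members higher, 2 lower and a median of 4.16. Maf, one of the transcription factors of the resident interstitial state, was at 89.9, 100.5 and 93.6 FPKM in MacB3-2wk and 1.86, 1.52 and 2.51 FPKM in MacA-2wk (log2 fold change 5.03, SE 0.170, limma adjusted p = 3.01e-13). Cx3cr1, the fractalkine receptor gene, was at 94.7, 72.2 and 74.3 FPKM in MacB3-2wk and 3.48, 1.24 and 1.46 FPKM in MacA-2wk (log2 fold change 4.79, SE 0.213, limma adjusted p = 2.19e-11). Neither Maf nor Cx3cr1 overlapped between the groups. Apoe, the lipid carrier, averaged 3883 ± 999.6 FPKM in MacB3-2wk and 142 ± 102 FPKM in MacA-2wk (log2 fold change 5.04). Csf1r, the receptor that keeps most tissue macrophages alive, was expressed in both and higher in MacB3-2wk, at 406 ± 75.4 FPKM against 72.4 ± 27.6 FPKM in MacA-2wk (log2 fold change 2.54). The 2 members that fell were Mertk, a receptor for dying cells (log2 fold change -2.23), and the mannose receptor gene Mrc1, at 70.3, 122 and 59.3 FPKM in MacB3-2wk and 394, 391 and 153 FPKM in MacA-2wk (log2 fold change -1.83). Cd14, the lipopolysaccharide co-receptor (log2 fold change 1.15), and the resident macrophage markers Lyve1 (log2 fold change 0.95) and Timd4 (log2 fold change 0.65) were not called.

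Among 43 macrophage transcription factors, 7 were higher and 6 lower, and the median of 0.09 turned to -0.27 with equal protein-coding sums and to -0.04 with quantile normalization, and ran over 0.02 to 0.35 when 1 library was left out. Beside Runx3 and Maf, the called genes included Rbpj, which carries Notch signals, at 34.2 ± 2.04 FPKM in MacB3-2wk and 9.98 ± 5.55 FPKM in MacA-2wk (log2 fold change 1.80). Rxra, the partner of PPARγ, averaged 36.4 ± 7.48 FPKM in MacB3-2wk and 124 ± 13.6 FPKM in MacA-2wk (log2 fold change -1.76). Tcf7l2, a Wnt pathway factor, averaged 60.5 ± 8.66 FPKM in MacB3-2wk and 254 ± 108 FPKM in MacA-2wk (log2 fold change -1.96), and Tfec, a macrophage relative of the lysosomal regulator TFEB, 10.4 ± 1.11 FPKM in MacB3-2wk and 45.5 ± 15.6 FPKM in MacA-2wk (log2 fold change -1.97). Spi1, which encodes the lineage factor PU.1, was high in both groups, at 933, 625 and 975 FPKM in MacB3-2wk and 552, 564 and 254 FPKM in MacA-2wk. Its log2 fold change of 0.95 (limma adjusted p = 0.0373) stayed under 2-fold. It exceeded 2-fold without MacB3-2wk replicate 2 (1.15), MacA-2wk replicate 1 (1.13) or MacA-2wk replicate 2 (1.14) and was 0.57 without MacA-2wk replicate 3.

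Classical monocyte genes were mostly higher, with 9 of 14 members higher and 1 lower, or 2 lower without MacA-2wk replicate 3 (median 1.69). When 1 library was left out, 7 to 10 were higher. Ly6c2, whose product marks classical monocytes and whose relatives in the Ly6 cluster are near-identical, was at 628, 449 and 566 FPKM in MacB3-2wk and 7.94, 9.51 and 18.7 FPKM in MacA-2wk (log2 fold change 5.47, SE 0.367, limma adjusted p = 2.53e-09). Ccr2, the receptor that brings monocytes into tissue, was at 99.7, 89.4 and 99.7 FPKM in MacB3-2wk and 6.04, 3.90 and 3.63 FPKM in MacA-2wk (log2 fold change 4.16, SE 0.241, limma adjusted p = 3.97e-10). Plac8 averaged 146 ± 19 FPKM in MacB3-2wk and 3.03 ± 2.16 FPKM in MacA-2wk (log2 fold change 5.34), and F13a1, which encodes a coagulation factor subunit of monocytes, 45.1 ± 17.2 FPKM in MacB3-2wk and 1.35 ± 0.536 FPKM in MacA-2wk (log2 fold change 4.25). In these 4 genes the groups did not overlap. Chil3, which monocytes and alveolar macrophages share, was the 1 member that fell. The nonclassical monocyte list had 4 higher and 3 lower of 14, with a median of -0.02. That median ran over -0.34 to 0.38 when 1 library was left out, and 2 members were higher when only the 2 groups were fitted. Beside Cx3cr1, its called members included Pou2f2 (log2 fold change 3.39), while the integrin gene Itgal (log2 fold change -1.55), the fatty acid transporter gene Cd36 (log2 fold change -1.48) and Fabp4 (log2 fold change -2.03) fell.

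Complement C1q is made by macrophages and starts the classical pathway by binding antibody complexes and dying cells. Its 3 chain genes lie side by side on mouse chromosome 4 (GRCm38, C1qb at 136880129 to 136886187, C1qc at 136889804 to 136893065 and C1qa at 136895917 to 136898803), and all 3 differed in the same direction. C1qa was at 1727, 1903 and 1961 FPKM in MacB3-2wk and 58.4, 13.7 and 46.8 FPKM in MacA-2wk (log2 fold change 5.75, SE 0.341, limma adjusted p = 5.02e-10). C1qb was at 2603, 2211 and 2719 FPKM in MacB3-2wk and 67.0, 15.9 and 47.1 FPKM in MacA-2wk (log2 fold change 6.04, SE 0.335, limma adjusted p = 2.42e-10). C1qc was at 1275, 1164 and 1317 FPKM in MacB3-2wk and 37.9, 16.4 and 37.0 FPKM in MacA-2wk (log2 fold change 5.41, SE 0.294, limma adjusted p = 2.05e-10). MacA-2wk replicate 2 was the lowest library for each chain. C3ar1, the receptor for the C3a fragment, averaged 194 ± 28.6 FPKM in MacB3-2wk and 7.34 ± 4.07 FPKM in MacA-2wk (log2 fold change 4.68). In the whole complement list 8 of 22 members were higher and 2 lower, with a median of 0.64 (0.35 with equal protein-coding sums). When 1 library was left out, 6 to 7 were higher. Without MacB3-2wk replicate 2, MacA-2wk replicate 1 or MacA-2wk replicate 2, 1 was lower. Without the sorting markers Itgam and Itgax, 7 of 20 were higher and 1 lower.

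Fc receptors bind antibody, and 4 of 8 members were higher and 1 lower, or 3 of 7 and 1 without the sorting marker Fcgr1. Fcgr2b, the inhibitory IgG receptor, was at 1326, 1259 and 1456 FPKM in MacB3-2wk and 253, 182 and 76.1 FPKM in MacA-2wk (log2 fold change 3.14, SE 0.399, limma adjusted p = 9.33e-06). Fcer1g, the common signalling chain, was abundant in both groups at 8039 ± 772 FPKM in MacB3-2wk and 2453 ± 523 FPKM in MacA-2wk (log2 fold change 1.73). Fcgrt, the neonatal Fc receptor that recycles IgG, was the member that fell, to 24.1 ± 1.37 FPKM in MacB3-2wk against 94.6 ± 8.20 FPKM in MacA-2wk (log2 fold change -1.93). The Ms4a genes, a cluster of tetraspan membrane proteins on chromosome 19, had 6 of 10 members higher and 1 lower, or 2 lower without MacA-2wk replicate 2. Ms4a6b averaged 67.1 ± 10.6 FPKM in MacB3-2wk and 2.78 ± 1.39 FPKM in MacA-2wk (log2 fold change 4.22), Ms4a6c 269.7 ± 8.19 FPKM in MacB3-2wk and 26.1 ± 5.05 FPKM in MacA-2wk (log2 fold change 3.33) and Ms4a14 8.10 ± 0.748 FPKM in MacB3-2wk and 0.257 ± 0.102 FPKM in MacA-2wk (log2 fold change 2.86). Ms4a8a ran opposite, at 18.1 ± 1.06 FPKM in MacB3-2wk and 136 ± 6.29 FPKM in MacA-2wk (log2 fold change -2.85), so members of 1 cluster differed in direction.

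Chemokine ligands recruit leukocytes, and most measured ones were higher in MacB3-2wk. Of 13 CC ligands 9 were higher and 0 lower (median 3.87), and of 13 CXC ligands 8 were higher and 0 lower (median 3.36). With equal protein-coding sums, under quantile normalization, or without MacB3-2wk replicate 2 or MacA-2wk replicate 3, 1 CC ligand was lower. Without MacA-2wk replicate 3, 7 CC ligands were higher. Ccl2, the main ligand of CCR2, was at 675, 917 and 606 FPKM in MacB3-2wk and 36.9, 35.8 and 85.8 FPKM in MacA-2wk (log2 fold change 3.87, SE 0.307, limma adjusted p = 2.09e-08). Ccl7, which shares that receptor, was at 161, 181 and 143 FPKM in MacB3-2wk and 1.45, 3.48 and 11.2 FPKM in MacA-2wk (log2 fold change 4.98, SE 0.586, limma adjusted p = 3.58e-06). Ccl5, a T cell attractant, was at 244, 272 and 273 FPKM in MacB3-2wk and 15.2, 6.39 and 11.8 FPKM in MacA-2wk (log2 fold change 4.52, SE 0.323, limma adjusted p = 5.44e-09). For these 3 genes every MacB3-2wk library exceeded every MacA-2wk library. Ccl4 averaged 133 ± 31.5 FPKM in MacB3-2wk and 11.5 ± 0.763 FPKM in MacA-2wk (log2 fold change 3.40). Ccl8 and Ccl9 are named because of their values. Ccl8 averaged 86.0 ± 8.79 FPKM in MacB3-2wk and 1.08 ± 1.24 FPKM in MacA-2wk (log2 fold change 5.56). Ccl9 was at 1955, 1846 and 2135 FPKM in MacB3-2wk and 1026, 31.1 and 38.4 FPKM in MacA-2wk, so MacA-2wk replicate 1 was far above its group (log2 fold change 4.18). The inflammatory ligands Ccl3 (log2 fold change 0.71), Ccl22 (log2 fold change 0.61), Ccl11 (log2 fold change -0.53) and Ccl6 (log2 fold change -0.83) were not called, and Ccl6 was abundant in both groups, at 1912 ± 564 FPKM in MacB3-2wk and 3387 ± 849 FPKM in MacA-2wk.

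Interferon-inducible CXC ligands, which draw T cells through CXCR3, were among the higher genes. Cxcl10 was at 1391, 1146 and 1478 FPKM in MacB3-2wk and 118, 56.1 and 46.7 FPKM in MacA-2wk (log2 fold change 4.28, SE 0.323, limma adjusted p = 1.08e-08). Cxcl9 was at 223, 245 and 229.6 FPKM in MacB3-2wk and 15.1, 9.82 and 7.09 FPKM in MacA-2wk (log2 fold change 4.38, SE 0.312, limma adjusted p = 5.32e-09). Cxcl16, the ligand of CXCR6, was at 207, 219 and 224 FPKM in MacB3-2wk and 13.5, 7.38 and 17.3 FPKM in MacA-2wk (log2 fold change 4.06, SE 0.216, limma adjusted p = 1.62e-10). The groups did not overlap in any of the 3 genes. The neutrophil attractants Cxcl1 (log2 fold change 0.49) and Cxcl2 (log2 fold change 1.17) were not called, with Cxcl2 at 1433, 544 and 664 FPKM in MacB3-2wk and 608, 239 and 310.4 FPKM in MacA-2wk. The receptors split, with 5 of 14 higher (3 with equal protein-coding sums) and 4 lower. Cx3cr1 and Ccr2 were among the higher ones. The formyl peptide receptor Fpr1, which senses bacterial peptides, was at 3.60, 6.70 and 1.86 FPKM in MacB3-2wk and 196, 186 and 202 FPKM in MacA-2wk (log2 fold change -5.39). Its relative Fpr2 averaged 9.27 ± 4.92 FPKM in MacB3-2wk and 108 ± 14.6 FPKM in MacA-2wk (log2 fold change -3.51), and the CXC receptor genes Cxcr1 (log2 fold change -3.81) and Cxcr2 (log2 fold change -1.73) were also lower. Ccr1 had a log2 fold change of 1.06, and lost its call without MacA-2wk replicate 3 (0.88), with equal protein-coding sums (0.70) and under quantile normalization (0.87).

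MHC class II molecules present peptides to CD4 T cells, and 8 of 12 members of the list were higher, 0 lower and the median was 1.76. Without MacA-2wk replicate 3, 6 were higher. H2-Ab1 was at 4493, 4087 and 5904 FPKM in MacB3-2wk and 174, 484 and 487 FPKM in MacA-2wk (log2 fold change 3.79, SE 0.319, limma adjusted p = 4.51e-08). H2-Eb1 averaged 1918 ± 348 FPKM in MacB3-2wk and 130.2 ± 84.8 FPKM in MacA-2wk (log2 fold change 4.07) and H2-Aa 1759 ± 219 FPKM in MacB3-2wk and 183 ± 83.1 FPKM in MacA-2wk (log2 fold change 3.38). Cd74, the invariant chain that guides class II molecules, was at 8056, 5052 and 9443 FPKM in MacB3-2wk and 435, 1170.5 and 724 FPKM in MacA-2wk (log2 fold change 3.34, SE 0.335, limma adjusted p = 4.75e-07). MacA-2wk replicate 1 was the lowest MacA library for each of these 4 genes, and the groups did not overlap. Reads of H2 genes can be shared between similar copies, so single levels are uncertain. Of 14 MHC class I presentation genes 5 were higher and 0 lower (0 lower also at an unadjusted p under 0.05 in limma), among them the immunoproteasome subunit gene Psmb8 (log2 fold change 1.89), the class I heavy chain genes H2-K1 (log2 fold change 1.63) and H2-T23 (log2 fold change 1.55), and the peptide transporter gene Tap1 (log2 fold change 1.56).

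Costimulatory and checkpoint genes gave 7 higher and 2 lower of 21 (1 lower without MacB3-2wk replicate 3, MacA-2wk replicate 1 or MacA-2wk replicate 2), and the median of 0.22 turned to -0.04 with equal protein-coding sums. Tnfsf9, the ligand of 4-1BB on T cells, was at 109, 95.8 and 92.6 FPKM in MacB3-2wk and 8.53, 2.73 and 5.89 FPKM in MacA-2wk (log2 fold change 4.00, SE 0.296, limma adjusted p = 8.13e-09). Cd86, the ligand of CD28 and CTLA-4, averaged 112 ± 9.73 FPKM in MacB3-2wk and 22.3 ± 6.67 FPKM in MacA-2wk (log2 fold change 2.31). The gene listed as 4632428N05Rik, which encodes the inhibitory ligand VISTA, averaged 1919 ± 364 FPKM in MacB3-2wk and 428 ± 37.0 FPKM in MacA-2wk (log2 fold change 2.15). Cd47, the signal against being engulfed, was lower, at 39.3 ± 0.930 FPKM in MacB3-2wk against 145 ± 15.1 FPKM in MacA-2wk (log2 fold change -1.85). Cd274, which encodes PD-L1, was at 34.4, 26.3 and 22.8 FPKM in MacB3-2wk and 67.2, 64.4 and 37.3 FPKM in MacA-2wk. Its log2 fold change of -0.96 (95% interval -1.51 to -0.42) was not called. Cd80 was not called either (log2 fold change -0.02).

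Of 30 tested interferon-stimulated genes 22 were higher and 0 lower, with a median of 2.02. The interferon gamma inducible GTPases, which attack vacuoles that hold pathogens, had 12 of 16 higher and 0 lower (median 1.48). Type I interferon acts through a factor complex that binds repeats of GAAA in promoters. The promoter windows of the 4 interferon-stimulated genes with the smallest adjusted p are shown because the members moved together. Each runs from 250 bases before to 50 after the start of the gene in RefSeq (GRCm38.p6), is written 5′ to 3′ on the strand of the gene, and has in capitals each match to the motif searched, which is GAAA, any 2 bases, and GAAA again.
Irf7: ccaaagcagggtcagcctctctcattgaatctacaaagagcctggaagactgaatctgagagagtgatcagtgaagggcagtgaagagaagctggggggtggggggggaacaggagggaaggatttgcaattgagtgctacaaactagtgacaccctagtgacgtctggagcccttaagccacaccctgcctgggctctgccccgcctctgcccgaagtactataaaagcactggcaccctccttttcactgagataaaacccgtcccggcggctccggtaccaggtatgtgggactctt
Bst2: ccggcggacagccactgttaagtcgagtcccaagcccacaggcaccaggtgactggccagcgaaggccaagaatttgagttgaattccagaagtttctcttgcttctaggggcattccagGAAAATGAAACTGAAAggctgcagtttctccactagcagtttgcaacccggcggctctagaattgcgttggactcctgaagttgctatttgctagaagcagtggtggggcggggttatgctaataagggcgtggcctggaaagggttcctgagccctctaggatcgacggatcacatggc
Oasl1: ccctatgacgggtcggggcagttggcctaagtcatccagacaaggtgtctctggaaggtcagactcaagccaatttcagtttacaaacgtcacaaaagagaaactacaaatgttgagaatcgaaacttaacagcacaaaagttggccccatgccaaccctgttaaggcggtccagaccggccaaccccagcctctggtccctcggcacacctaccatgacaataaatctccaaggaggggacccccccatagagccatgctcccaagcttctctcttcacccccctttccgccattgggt
Isg15: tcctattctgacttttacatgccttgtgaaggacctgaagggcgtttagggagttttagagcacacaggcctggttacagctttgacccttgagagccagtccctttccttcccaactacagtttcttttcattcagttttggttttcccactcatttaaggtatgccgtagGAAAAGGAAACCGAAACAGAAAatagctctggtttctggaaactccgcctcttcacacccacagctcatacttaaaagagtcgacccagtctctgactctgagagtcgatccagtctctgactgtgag
The windows are chr7:141266375-141266674 on the minus strand for Irf7, chr8:71537423-71537722 on the minus strand for Bst2, chr5:114922990-114923289 on the plus strand for Oasl1 and chr4:156200769-156201068 on the minus strand for Isg15. The motif was searched on both strands, the other reading TTTC, any 2 bases, TTTC. The Bst2 window held 2 overlapping matches and the Isg15 window 3, all on the strand of the gene, while the windows of Irf7 and Oasl1 held 0. Of all 32851 windows of this length, 1131 (3.44%) held the motif, and of the 27025 genes with a window, 1079 (3.99%) held it in at least 1. Of the 30 tested interferon-stimulated genes, 20 matched a window by symbol and 11 of these (55.0%) held it, and of the 14 higher genes with a window 8 did. Of the 16 GTPase genes, 10 matched a window and 9 of these held it. A match describes the letters only and was not read as binding.

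Irf7, the factor that amplifies type I interferon, was at 776, 750.5 and 1096 FPKM in MacB3-2wk and 48.3, 41.2 and 45.1 FPKM in MacA-2wk (log2 fold change 4.24, SE 0.353, limma adjusted p = 3.82e-08). Bst2, which tethers virus particles to the cell, was at 449, 474 and 609 FPKM in MacB3-2wk and 64.7, 57.7 and 97.0 FPKM in MacA-2wk (log2 fold change 2.81, SE 0.258, limma adjusted p = 1.43e-07). Isg15, a ubiquitin-like modifier, was at 187, 123 and 188 FPKM in MacB3-2wk and 20.4, 16.9 and 29.8 FPKM in MacA-2wk (log2 fold change 2.85, SE 0.301, limma adjusted p = 9.54e-07). In each of these genes the lowest MacB3-2wk library lay above the highest MacA-2wk library. Oasl1, which restrains Irf7 translation in mice, averaged 97.1 ± 24.6 FPKM in MacB3-2wk and 6.12 ± 3.57 FPKM in MacA-2wk (log2 fold change 3.89). Among the GTPases, Tgtp2, which has a near-identical copy, averaged 196 ± 29.6 FPKM in MacB3-2wk and 14.6 ± 10.9 FPKM in MacA-2wk (log2 fold change 3.86), Gbp3 43.7 ± 2.72 FPKM in MacB3-2wk and 7.03 ± 2.49 FPKM in MacA-2wk (log2 fold change 2.52), Gbp2 67.8 ± 11.1 FPKM in MacB3-2wk and 14.8 ± 1.56 FPKM in MacA-2wk (log2 fold change 2.11) and Ifi47 45.4 ± 7.04 FPKM in MacB3-2wk and 10.1 ± 2.04 FPKM in MacA-2wk (log2 fold change 2.08). Part of this set was also higher in MacA-2wk than in MacA-N, the same gate in lungs of mice without tumour. In that comparison, which shares the MacA-2wk libraries with the main one, 13 of the 30 interferon-stimulated genes were higher in MacA-2wk, beside 0.729% of all genes. When only the 2 groups of that comparison were fitted, 1 of 29 was. Irf7 was at 44.9 ± 3.53 FPKM in MacA-2wk and 8.01 ± 0.195 FPKM in MacA-N, and Isg15 at 22.3 ± 6.67 FPKM in MacA-2wk and 5.93 ± 1.32 FPKM in MacA-N.

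Toll-like receptors sense microbial molecules and nucleic acids. Of 24 receptor and adaptor genes 8 were higher and 1 lower (2 without MacB3-2wk replicate 1 or MacA-2wk replicate 3), with a median of 0.37 (0.03 with equal protein-coding sums). Tlr9, the sensor of unmethylated DNA, was at 111, 95.8 and 115 FPKM in MacB3-2wk and 2.44, 1.38 and 1.71 FPKM in MacA-2wk (log2 fold change 5.26, SE 0.178, limma adjusted p = 3.01e-13), the smallest adjusted p of all 17156 genes together with that of Maf. Ly86 and Cd180 encode partners that tune responses to lipopolysaccharide. Ly86 averaged 311 ± 34.7 FPKM in MacB3-2wk and 16.8 ± 1.21 FPKM in MacA-2wk (log2 fold change 4.12), and Cd180 204 ± 43.4 FPKM in MacB3-2wk and 33.1 ± 4.77 FPKM in MacA-2wk (log2 fold change 2.58). Tlr1, a partner of TLR2, averaged 12.6 ± 2.13 FPKM in MacB3-2wk and 0.875 ± 0.490 FPKM in MacA-2wk (log2 fold change 2.88). Tlr2 itself was at 132, 94.5 and 111 FPKM in MacB3-2wk and 216, 276 and 164 FPKM in MacA-2wk and was not called (log2 fold change -0.93), nor was Tlr4 (log2 fold change 0.36). Clec7a, the fungal glucan receptor Dectin-1, was lower at 213 ± 4.88 FPKM in MacB3-2wk against 549.5 ± 155 FPKM in MacA-2wk (log2 fold change -1.32).

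C-type lectins and scavenger receptors bind sugars, lipids and dying cells, and each list split. Of 24 lectins 8 were higher and 6 lower. When 1 library was left out, 5 to 8 were higher, with 5 without MacA-2wk replicate 3. Clec4a1 averaged 81.7 ± 10.4 FPKM in MacB3-2wk and 3.78 ± 2.87 FPKM in MacA-2wk (log2 fold change 4.32), and the galactose-binding lectin gene Mgl2 51.5 ± 7.17 FPKM in MacB3-2wk and 2.19 ± 1.67 FPKM in MacA-2wk (log2 fold change 4.16). Clec4d, a glycolipid receptor, averaged 252 ± 21 FPKM in MacB3-2wk and 67.0 ± 31.2 FPKM in MacA-2wk (log2 fold change 1.99). Cd302 averaged 36.5 ± 1.38 FPKM in MacB3-2wk and 155 ± 30.0 FPKM in MacA-2wk (log2 fold change -2.04) and Clec1b, known as a platelet receptor for podoplanin, 3.37 ± 2.65 FPKM in MacB3-2wk and 28.1 ± 13.6 FPKM in MacA-2wk (log2 fold change -2.86). Of 26 scavenger and uptake genes 8 were higher and 8 lower. Stab1, a receptor for modified lipoproteins and matrix fragments, was at 291, 304 and 255 FPKM in MacB3-2wk and 18.9, 2.42 and 14 FPKM in MacA-2wk (log2 fold change 4.82, SE 0.611, limma adjusted p = 9.05e-06). Trem2, the lipid-sensing receptor of tumour and tissue macrophages, was at 240.0, 241 and 323 FPKM in MacB3-2wk and 87.9, 50.3 and 39.8 FPKM in MacA-2wk (log2 fold change 2.22, SE 0.381, limma adjusted p = 2.54e-04). Gas6, the bridge between dying cells and MERTK, averaged 13.9 ± 2.71 FPKM in MacB3-2wk and 0.707 ± 0.321 FPKM in MacA-2wk (log2 fold change 3.13). On the lower side stood Marco, the oxidised lipoprotein receptor gene Olr1, at 143, 164 and 102 FPKM in MacB3-2wk and 1769.6, 1463 and 564 FPKM in MacA-2wk (log2 fold change -3.08), the HDL receptor gene Scarb1 (log2 fold change -1.42) and its lysosomal relative Scarb2 (log2 fold change -1.34).

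Of 21 genes that cut or remodel matrix 9 were higher and 1 lower, or 2 lower without MacA-2wk replicate 3. The median of 0.62 moved to 0.28 without MacB3-2wk replicate 2 and to 0.26 with equal protein-coding sums. Mmp14, a membrane-bound collagenase, was at 234, 171 and 259.5 FPKM in MacB3-2wk and 15.7, 7.67 and 19.8 FPKM in MacA-2wk (log2 fold change 3.92, SE 0.331, limma adjusted p = 4.48e-08). Adam8, a shedding protease, was at 88.6, 94.9 and 86.2 FPKM in MacB3-2wk and 10.6, 4.31 and 7.95 FPKM in MacA-2wk (log2 fold change 3.47, SE 0.278, limma adjusted p = 2.31e-08). Mmp13, another collagenase, averaged 17.2 ± 4.75 FPKM in MacB3-2wk and 0.604 ± 0.148 FPKM in MacA-2wk (log2 fold change 3.47), and Mmp25, a membrane-anchored enzyme, 5.18 ± 0.685 FPKM in MacB3-2wk and 0.726 ± 0.167 FPKM in MacA-2wk (log2 fold change 1.84). Mmp19 was the member that fell, to 28.5 ± 4.35 FPKM in MacB3-2wk against 118 ± 48.9 FPKM in MacA-2wk (log2 fold change -1.92). Of 16 cathepsins and related genes 7 were higher (4 under quantile normalization) and 2 lower (1 without MacA-2wk replicate 1 or 2). Lgmn, the lysosomal protease legumain, was at 633, 629 and 682 FPKM in MacB3-2wk and 131, 98.5 and 63.1 FPKM in MacA-2wk (log2 fold change 2.78, SE 0.293, limma adjusted p = 9.13e-07). Ctse averaged 8.72 ± 2.55 FPKM in MacB3-2wk and 0.473 ± 0.480 FPKM in MacA-2wk (log2 fold change 2.74), while Ctsk, the collagen-cutting cathepsin K, averaged 24.4 ± 7.39 FPKM in MacB3-2wk and 236 ± 71.9 FPKM in MacA-2wk (log2 fold change -3.22). The cystatin C gene Cst3 was at 1995, 2065 and 2505 FPKM in MacB3-2wk and 826, 795 and 982 FPKM in MacA-2wk (log2 fold change 1.33) and lost its call with equal protein-coding sums (0.97) and under quantile normalization (0.77).

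The coagulation and plasminogen list had 5 of 19 higher and 5 lower. Its median of -0.40 ran over -0.54 to -0.10 when 1 library was left out, nearest to 0 without MacB3-2wk replicate 2. Thbs1, the matricellular protein thrombospondin 1, was at 1157, 602 and 571 FPKM in MacB3-2wk and 31.8, 11.4 and 23.3 FPKM in MacA-2wk (log2 fold change 5.10, SE 0.548, limma adjusted p = 1.17e-06). Plau, the urokinase gene, averaged 39.8 ± 6.64 FPKM in MacB3-2wk and 7.23 ± 1.55 FPKM in MacA-2wk (log2 fold change 2.32). Serpinb2, its inhibitor PAI-2, averaged 20.1 ± 13.3 FPKM in MacB3-2wk and 0.0555 ± 0.0961 FPKM in MacA-2wk (log2 fold change 4.14), with MacA-2wk listed at 0 in 2 of 3 libraries. The anticoagulant genes Pros1 (log2 fold change -2.42) and Thbd (log2 fold change -1.37) and the plasminogen receptor subunit gene Anxa2 (log2 fold change -1.46) were lower. Thbs1, Plau and Serpinb2 did not overlap between the groups.

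Growth and angiogenic factors gave 10 higher and 5 lower of 31, and 3 lower without MacB3-2wk replicate 2, MacB3-2wk replicate 3 or MacA-2wk replicate 2. Vegfa, the main driver of vessel growth, was at 347, 243 and 173 FPKM in MacB3-2wk and 22.3, 17.1 and 38.4 FPKM in MacA-2wk (log2 fold change 3.26, SE 0.365, limma adjusted p = 2.01e-06). Sema4d, a semaphorin with effects on vessels, averaged 98.6 ± 6.29 FPKM in MacB3-2wk and 7.17 ± 2.55 FPKM in MacA-2wk (log2 fold change 3.66), and Gdf3, a member of the TGFβ family, 19.1 ± 5.58 FPKM in MacB3-2wk and 0.434 ± 0.461 FPKM in MacA-2wk (log2 fold change 3.81). The EGF receptor ligand genes Ereg, averaging 0.104 ± 0.117 FPKM in MacB3-2wk and 9.45 ± 5.64 FPKM in MacA-2wk (log2 fold change -3.12), and Areg, at 12.5 ± 4.90 FPKM in MacB3-2wk and 39.6 ± 15.8 FPKM in MacA-2wk (log2 fold change -1.58), fell, as did Pdgfc, a ligand for fibroblasts, at 4.15 ± 2.14 FPKM in MacB3-2wk and 14.7 ± 0.937 FPKM in MacA-2wk (log2 fold change -1.68). Of the other EGF receptor ligand genes listed, Hbegf was not called (log2 fold change 0.83), and Egf and Tgfa did not reach the filter. Spp1, which encodes osteopontin, was at 358, 655 and 377 FPKM in MacB3-2wk and 717, 313 and 299 FPKM in MacA-2wk, so the groups overlapped (log2 fold change 0.13, 95% interval -0.82 to 1.08). Igf1 was at 11.9, 33.4 and 22.9 FPKM in MacB3-2wk and 62.9, 52.1 and 39.8 FPKM in MacA-2wk and was not called (log2 fold change -1.24).

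Of 16 cytokine genes 3 were higher (18.75%) and 1 lower (6.25%), beside 7.2% and 7.28% over all genes tested. The lower count was 2 without MacB3-2wk replicate 1 or 2, and 3 without MacA-2wk replicate 3. With equal protein-coding sums 2 were higher and 4 lower. Il18, which encodes a cytokine stored as a precursor, was at 3.41, 3.25 and 4.85 FPKM in MacB3-2wk and 178, 164 and 147 FPKM in MacA-2wk (log2 fold change -5.09, SE 0.347, limma adjusted p = 2.92e-09). Mif, a cytokine released from many cell types, averaged 1212 ± 99.9 FPKM in MacB3-2wk and 179.9 ± 47.4 FPKM in MacA-2wk (log2 fold change 2.78), and the anti-inflammatory Il10 8.12 ± 2.75 FPKM in MacB3-2wk and 1.38 ± 1.33 FPKM in MacA-2wk (log2 fold change 2.03). Il1b was at 1714, 722 and 1139 FPKM in MacB3-2wk and 1020.5, 629.7 and 279.6 FPKM in MacA-2wk and overlapped between the groups (log2 fold change 0.99). Tnf (log2 fold change -0.08) and Il6 (log2 fold change -1.23) also overlapped and were not called. Cytokine receptors had 10 of 28 higher and 2 lower. Il21r averaged 56.2 ± 2.03 FPKM in MacB3-2wk and 2.49 ± 0.429 FPKM in MacA-2wk (log2 fold change 4.04) and Il7r 28.5 ± 3.82 FPKM in MacB3-2wk and 2.17 ± 0.891 FPKM in MacA-2wk (log2 fold change 3.25), and the common gamma chain gene Il2rg, which both receptors use, 236 ± 25.9 FPKM in MacB3-2wk and 72.2 ± 11.8 FPKM in MacA-2wk (log2 fold change 1.70). The receptor genes that fell were Flt1, a VEGF receptor, at 5.18 ± 0.746 FPKM in MacB3-2wk and 28.1 ± 10.7 FPKM in MacA-2wk (log2 fold change -2.17), and Tgfbr2, at 32.1 ± 0.639 FPKM in MacB3-2wk and 76.6 ± 19.5 FPKM in MacA-2wk (log2 fold change -1.20). Without MacA-2wk replicate 3, or with equal protein-coding sums, 4 receptor genes were lower.

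Genes of lipid metabolism were mostly lower in MacB3-2wk. Of 37 fatty acid and lipid handling genes 3 were higher and 21 lower (median -1.21). Of 24 genes of cholesterol and fatty acid synthesis 1 was higher and 13 lower (median -1.11). Of these 24, 10 to 13 were lower when 1 library was left out, with 11 without MacA-2wk replicate 3. Cidec, a lipid droplet protein, was at 0.898, 4.26 and 0 FPKM in MacB3-2wk and 159, 188 and 79.0 FPKM in MacA-2wk (log2 fold change -5.96, SE 0.460, limma adjusted p = 1.43e-08). Lpl, the lipoprotein lipase gene, was at 33.6, 39.7 and 44.0 FPKM in MacB3-2wk and 627, 743 and 149 FPKM in MacA-2wk, where replicate 3 was the lowest (log2 fold change -3.37). The groups did not overlap in Cidec or Lpl. The sterol enzyme genes Cyp51 (log2 fold change -1.55) and Sc5d (log2 fold change -1.5), the fatty acid elongase gene Elovl6 (log2 fold change -1.48) and the sterol feedback gene Insig1 (log2 fold change -1.17) were lower by smaller amounts. The fatty acid synthase gene Fasn (log2 fold change -0.19) was not called. Higher members were the lysophospholipid acyltransferase gene Lpcat2 (log2 fold change 1.96), the lysosomal cholesterol carrier gene Npc2 (log2 fold change 1.48) and the desaturase gene Fads1 (log2 fold change 1.30, or 0.97 and not called with equal protein-coding sums). Fabp5 had a log2 fold change of 1.36 and lost the call without MacB3-2wk replicate 2 (1.06) or MacA-2wk replicate 3 (0.83).

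Of 27 genes of glycolysis and the hypoxia response 13 were higher and 0 lower (1 at an unadjusted p under 0.05 in limma), with a median of 1.00, or 0.65 with equal protein-coding sums. Bnip3, a mitophagy receptor that hypoxia induces, was at 249.7, 236 and 264 FPKM in MacB3-2wk and 21.5, 19.3 and 19.5 FPKM in MacA-2wk (log2 fold change 3.57, SE 0.374, limma adjusted p = 8.36e-07). Ndrg1, another gene induced by hypoxia, was at 211, 212 and 253 FPKM in MacB3-2wk and 14.2, 2.57 and 12.2 FPKM in MacA-2wk (log2 fold change 4.66, SE 0.451, limma adjusted p = 2.97e-07). Slc16a3, which exports lactate, averaged 145 ± 27.6 FPKM in MacB3-2wk and 36.0 ± 6.47 FPKM in MacA-2wk (log2 fold change 1.97), and the hexokinase gene Hk1 36.1 ± 10.7 FPKM in MacB3-2wk and 8.49 ± 2.59 FPKM in MacA-2wk (log2 fold change 1.96). Ldha (log2 fold change -0.11) and the hypoxia factor gene Hif1a (log2 fold change 0.82) were not called. Oxidative phosphorylation genes stayed near the background, with 1 of 32 higher (0 without MacA-2wk replicate 2) and 2 lower (1 without MacB3-2wk replicate 1 or MacA-2wk replicate 3). With equal protein-coding sums 6 of them were lower and the median of 0.07 turned to -0.29.

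Arginine feeds nitric oxide synthase or arginase in macrophages. Arg1, the arginase of alternatively activated and tumour macrophages, was at 538, 678 and 495 FPKM in MacB3-2wk and 26.2, 7.95 and 5.09 FPKM in MacA-2wk (log2 fold change 5.63, SE 0.438, limma adjusted p = 1.54e-08). Nos2, the inducible nitric oxide synthase, was low in both groups, at 4.08 ± 1.12 FPKM in MacB3-2wk and 0.503 ± 0.574 FPKM in MacA-2wk (log2 fold change 1.80). Ass1, which rebuilds arginine from citrulline, averaged 23.8 ± 4.17 FPKM in MacB3-2wk and 2.95 ± 0.0908 FPKM in MacA-2wk (log2 fold change 2.63), and Arg2, the mitochondrial arginase, 13.2 ± 3.41 FPKM in MacB3-2wk and 3.82 ± 1.32 FPKM in MacA-2wk (log2 fold change 1.57). The arginine transporter gene Slc7a2 ran the other way, at 9.31 ± 1.6 FPKM in MacB3-2wk and 80.6 ± 24.3 FPKM in MacA-2wk (log2 fold change -2.95). In the whole list 5 of 15 genes were higher and 1 lower. Its median of 0.27 turned to -0.05 with equal protein-coding sums and ran over 0.14 to 0.57 when 1 library was left out.

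**Figure D4:**
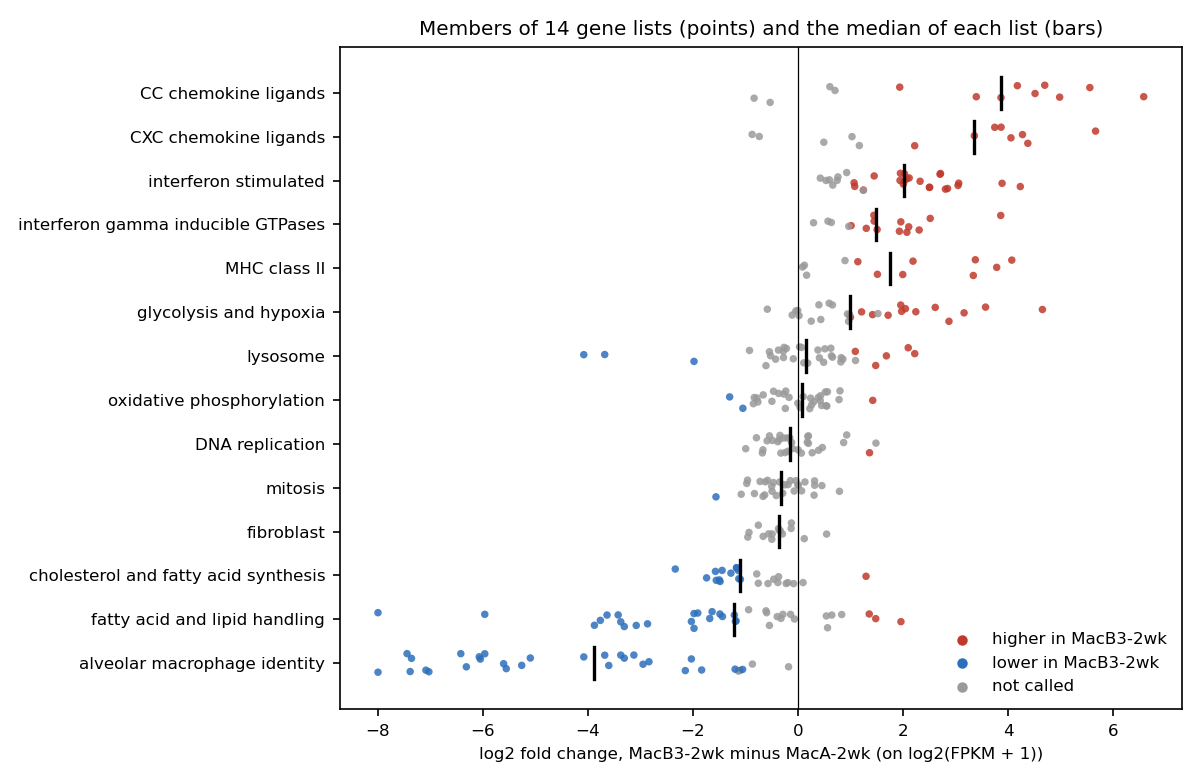
Log2 fold changes, MacB3-2wk minus MacA-2wk, of the tested members of 14 lists. Each point is 1 gene, red where called higher, blue where called lower and grey where not called, and each black bar is the median of its list. The medians run from 3.87 for CC chemokine ligands to -3.88 for alveolar macrophage identity, and the lysosome, oxidative phosphorylation and DNA replication lists lie close to 0.

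Calls among iron, oxidant and lysosome genes went in both directions, beside 7.2% higher and 7.28% lower over all genes tested. Slc11a1, which pumps iron out of phagosomes, was at 527, 830.0 and 538 FPKM in MacB3-2wk and 85.2, 45.6 and 43.3 FPKM in MacA-2wk (log2 fold change 3.46, SE 0.313, limma adjusted p = 1.15e-07). Trf, the transferrin gene (log2 fold change -2.12), the ferritin light chain gene Ftl1 (log2 fold change -1.29), the gene Ncoa4, whose product takes ferritin to the lysosome (log2 fold change -2.51) and the biliverdin reductase gene Blvra (log2 fold change -1.34) were lower. Hmox1, which breaks down heme, was at 1243, 3127 and 2350.0 FPKM in MacB3-2wk and 1835, 1086 and 942 FPKM in MacA-2wk and overlapped between the groups (log2 fold change 0.76). In the iron and heme list 4 of 20 genes were higher, or 2 with equal protein-coding sums, and 5 lower. Of 25 oxidant and antioxidant genes 3 were higher and 6 lower. Of these, 1 was higher without MacA-2wk replicate 3 or MacB3-2wk replicate 3, 0 with equal protein-coding sums, and 3 were lower without MacA-2wk replicate 2 and 8 without MacA-2wk replicate 3. The glutathione genes Mgst1 (log2 fold change -2.31), Gsr (log2 fold change -2.16) and Gstm1 (log2 fold change -1.97) were lower. Of 34 lysosome genes 5 were higher (14.7%) and 3 lower (8.82%), the lower share near that over all genes. Atp6v0c, a proton pump subunit, averaged 551 ± 103 FPKM in MacB3-2wk and 173 ± 49.0 FPKM in MacA-2wk (log2 fold change 1.69). The pump subunit gene Atp6v0d2 (log2 fold change -4.08), the channel gene Mcoln3 (log2 fold change -3.68) and the lysosomal acid lipase gene Lipa (log2 fold change -1.98) were lower.

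Lipid mediators and purine signals also split by gene. Of 21 eicosanoid genes 4 were higher and 4 lower. Ptgs2, the inducible cyclooxygenase, was at 174, 94.3 and 89.9 FPKM in MacB3-2wk and 20.2, 5.95 and 11.9 FPKM in MacA-2wk (log2 fold change 3.22, SE 0.35, limma adjusted p = 1.35e-06). Pla2g7 averaged 146 ± 35.8 FPKM in MacB3-2wk and 21.2 ± 9.15 FPKM in MacA-2wk (log2 fold change 2.79), Hpgds, a prostaglandin D synthase, 13.1 ± 4.33 FPKM in MacB3-2wk and 2.00 ± 2.28 FPKM in MacA-2wk (log2 fold change 2.47), and the leukotriene receptor gene Cysltr1 13.8 ± 2.92 FPKM in MacB3-2wk and 2.10 ± 0.796 FPKM in MacA-2wk (log2 fold change 2.26). Alox5, the first enzyme of leukotriene synthesis, was at 5.99, 6.60 and 8.02 FPKM in MacB3-2wk and 86.8, 119.7 and 57.7 FPKM in MacA-2wk (log2 fold change -3.45, SE 0.296, limma adjusted p = 5.76e-08). Ltc4s, a later enzyme of that route, averaged 36.9 ± 21.5 FPKM in MacB3-2wk and 222 ± 36.8 FPKM in MacA-2wk (log2 fold change -2.71). The groups did not overlap in Ptgs2, Alox5 or Ltc4s. Of 18 adenosine and ATP genes 7 were higher and 5 lower. Entpd1, the ectoenzyme CD39, averaged 223 ± 14.6 FPKM in MacB3-2wk and 66.9 ± 10.4 FPKM in MacA-2wk (log2 fold change 1.73), and the ATP-gated channel gene P2rx7 39.0 ± 4.35 FPKM in MacB3-2wk and 12.2 ± 3.31 FPKM in MacA-2wk (log2 fold change 1.62). The nucleotide receptor gene P2ry14 averaged 9.07 ± 2.79 FPKM in MacB3-2wk and 53.1 ± 4.80 FPKM in MacA-2wk (log2 fold change -2.46) and P2ry13 12.1 ± 0.898 FPKM in MacB3-2wk and 48.4 ± 5.66 FPKM in MacA-2wk (log2 fold change -1.91).

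Further lists had calls in both directions. Their shares ran from 20% to 35% higher and from 10.5% to 31.6% lower, beside 7.2% and 7.28% over all genes tested. Of 19 genes associated with Trem2 macrophages 6 were higher and 6 lower. Without the sorting marker Itgax, 6 of 18 were higher and 5 lower. Without MacA-2wk replicate 1 or 2, 3 were lower, without MacA-2wk replicate 3, 4 were higher and 7 lower, and with equal protein-coding sums 3 were higher. Beside Trem2, Apoe and Lpl, they included Cd9, a tetraspanin, at 606, 692 and 709 FPKM in MacB3-2wk and 2836, 2977 and 3045 FPKM in MacA-2wk (log2 fold change -2.14, SE 0.287, limma adjusted p = 1.73e-05). Cst7, a cystatin, averaged 10.4 ± 2.10 FPKM in MacB3-2wk and 0.345 ± 0.206 FPKM in MacA-2wk (log2 fold change 3.08), and Gpnmb, a glycoprotein of lipid-laden macrophages, was not called (log2 fold change 1.1). Genes known from the response to interleukin-4 gave 7 higher and 3 lower of 20, with Arg1, Mgl2, the chemokine gene Ccl24 (log2 fold change 4.70) and Socs1 (log2 fold change 2.38) higher, and Chil3, Mrc1 and Clec7a lower. Of 14 tetraspanins 3 were higher and 3 lower, with 0 higher without MacA-2wk replicate 2, 1 higher without MacB3-2wk replicate 3 or MacA-2wk replicate 1, and 0 higher and 5 lower with equal protein-coding sums. Of 15 Siglec and Cd300 genes 3 were higher and 4 lower, or 3 lower without the sorting marker Siglecf. Whichever of the libraries was left out, 2 were higher. Cd300a averaged 114 ± 10.9 FPKM in MacB3-2wk and 35.8 ± 10.0 FPKM in MacA-2wk (log2 fold change 1.68). Cd33 averaged 29 ± 5.86 FPKM in MacB3-2wk and 83.6 ± 22.1 FPKM in MacA-2wk (log2 fold change -1.47). Of 19 integrins 5 were higher and 2 lower (1 without MacB3-2wk replicate 2, MacA-2wk replicate 1 or MacA-2wk replicate 2), or 4 and 1 of 17 without the sorting markers Itgam and Itgax, among them Itga9 at 14.7 ± 1.79 FPKM in MacB3-2wk and 2.12 ± 2.70 FPKM in MacA-2wk (log2 fold change 2.70) and Itgav, a receptor that activates TGFβ, at 179 ± 1.54 FPKM in MacB3-2wk and 62.9 ± 27.5 FPKM in MacA-2wk (log2 fold change 1.58). The medians of the Trem2, integrin, adenosine, eicosanoid and lysosome lists all turned negative with equal protein-coding sums.

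Cell division genes had shares of calls under the 7.2% higher and 7.28% lower over all genes tested, with 1 call in each list. Counts this small were not read as a result about these lists. Of 31 DNA replication genes 1 was higher (Rfc3, a clamp loader subunit, log2 fold change 1.36) and 0 lower, and of 30 mitosis genes 0 were higher and 1 lower (Ccnb1, a mitotic cyclin, log2 fold change -1.56). In limma at an unadjusted p under 0.05, 5 replication genes were higher and 4 lower, and 1 mitosis gene was higher and 5 lower. Of the mitosis genes, 4 were lower without MacA-2wk replicate 3, and of the replication genes 3 were higher without MacB3-2wk replicate 3, with 0 to 3 in either direction for each list without any other library. Top2a, a topoisomerase of dividing cells, was at 51.9, 66.1 and 45.9 FPKM in MacB3-2wk and 46.5, 29.3 and 21.2 FPKM in MacA-2wk, and Mki67 at 27.5, 11.3 and 20.6 FPKM in MacB3-2wk and 43.1, 27.8 and 4.82 FPKM in MacA-2wk, so both overlapped. Against MacB2-2wk, the CD11c- population of the same week, 15 replication and 12 mitosis genes were higher in MacB3-2wk, beside 3.15% of all genes tested. When only those 2 groups were fitted, the counts were 10 and 4. Top2a averaged 54.6 ± 10.4 FPKM in MacB3-2wk and 13.5 ± 0.85 FPKM in MacB2-2wk. Of 23 immediate early and stress genes, which rise when cells are dissociated, 3 were higher and 0 lower (0 lower also at an unadjusted p under 0.05 in limma), and 6 were higher without MacA-2wk replicate 3. The 3 were the heat shock genes Hspa1b (log2 fold change 2.35) and Hspa1a (log2 fold change 1.89), near-identical copies, and Ier3 (log2 fold change 2.14), while Fos (log2 fold change 0.12) and Jun (log2 fold change 0.55) were not called.

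Markers of other cell types were low against the macrophage genes in most libraries. Of 15 fibroblast genes 0 were called in limma (0 also at an unadjusted p under 0.05), and of 16 endothelial genes 0 (2 lower at an unadjusted p under 0.05). Without MacA-2wk replicate 3, 1 gene of each list was higher, and 1 endothelial gene was lower without MacB3-2wk replicate 2 or MacA-2wk replicate 2. The calls were 1 higher and 2 lower of 15 lung epithelial genes, and 1 and 1 of 13 T cell genes. For NK cell genes they were 2 and 0 of 7, and for B cell genes 2 and 1 of 9. For neutrophil genes they were 2 and 1 of 11, and for dendritic cell genes 2 and 1 of 11. For eosinophil genes they were 0 and 2 of 3. Each count moved by at most 1 when a library was left out. Over all genes tested, 7.2% were higher and 7.28% lower. The higher shares were 28.6% for NK cell, 22.2% for B cell and 18.2% each for neutrophil and dendritic cell genes, on 2 genes each. They were 7.69% for T cell and 6.67% for lung epithelial genes, on 1 gene each. Lower shares ran from 0% for NK cell to 66.7% for eosinophil genes, on at most 2 genes each. The endothelial genes summed to 137 to 196 FPKM in MacB3-2wk, against 136 and 119 FPKM in MacA-2wk replicates 1 and 2 and 563 FPKM in replicate 3. The lung epithelial genes summed to 191 to 627 FPKM in MacB3-2wk, against 142 and 176 FPKM in MacA-2wk replicates 1 and 2 and 1231 FPKM in replicate 3. Ager, an epithelial gene of the alveolus, was at 28.6, 28.6 and 4.91 FPKM in MacB3-2wk and 5.06, 4.80 and 294 FPKM in MacA-2wk. The neutrophil list summed to 154 to 389 FPKM in MacB3-2wk and 103 to 256 FPKM in MacA-2wk, the dendritic cell list to 42.7 to 112 FPKM in MacB3-2wk and 36.7 to 83.1 FPKM in MacA-2wk, and the B cell list to 46.5 to 60.6 FPKM in MacB3-2wk and 33.4 to 39.5 FPKM in MacA-2wk. Their part in the results was not tested. The T cell list summed to 14.6 to 28.4 FPKM in MacB3-2wk and 235 to 360 FPKM in MacA-2wk, where Cd2 alone gave 336, 352 and 221 FPKM. In the eosinophil list, Siglecf and the ribonuclease gene Ear6 were the called members, and Ear6 was listed at 0 in all 3 MacB3-2wk libraries and at 16.1, 4.69 and 12.3 FPKM in MacA-2wk.

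MacB3-2wk was placed against MacB2-2wk, sorted as CD11b+, Ly6G-, CD64med and CD11c- cells from tumour-bearing lobes of the same week. This second comparison shares the MacB3-2wk libraries, so values are given side by side and no overlap is read. It had 541 genes higher (3.15%) and 722 lower (4.21%). The C1q genes were higher in MacB3-2wk there too, with C1qa at 1864 ± 122 FPKM in MacB3-2wk and 71.5 ± 12.1 FPKM in MacB2-2wk (log2 fold change 4.70). Fcrls (log2 fold change 5.36), Cd72 (log2 fold change 4.46), Pf4 (log2 fold change 3.98), Stab1 (log2 fold change 3.60) and Arg1 (log2 fold change 2.72) were likewise higher in MacB3-2wk than in MacB2-2wk. Ly6c2 (log2 fold change -1.59), Plac8 (log2 fold change -2.30) and Ccr2 (log2 fold change -1.20), which were higher in MacB3-2wk than in MacA-2wk, were lower than in MacB2-2wk. Ly6c2 averaged 548 ± 91.0 FPKM in MacB3-2wk, 1641 ± 157 FPKM in MacB2-2wk and 12.1 ± 5.84 FPKM in MacA-2wk. Of the 14 classical monocyte genes 0 were higher and 11 lower in MacB3-2wk than in MacB2-2wk. Mrc1 and Cd9, which were lower in MacB3-2wk than in MacA-2wk, were higher than in MacB2-2wk (log2 fold changes 3.20 and 1.64). MacB3-2wk thus lay between the other 2 populations for these 5 genes. Cx3cr1 (log2 fold change 0.26) and Irf7 (log2 fold change 0.63) were not called against MacB2-2wk. Of the 30 interferon-stimulated genes 1 was higher and 0 lower in MacB3-2wk than in MacB2-2wk (median -0.14). Of the 16 interferon gamma inducible GTPases 2 were higher and 0 lower (median 0.06). Most calls of these 2 lists against MacA-2wk thus did not set MacB3-2wk apart from MacB2-2wk.

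**Figure D5:**
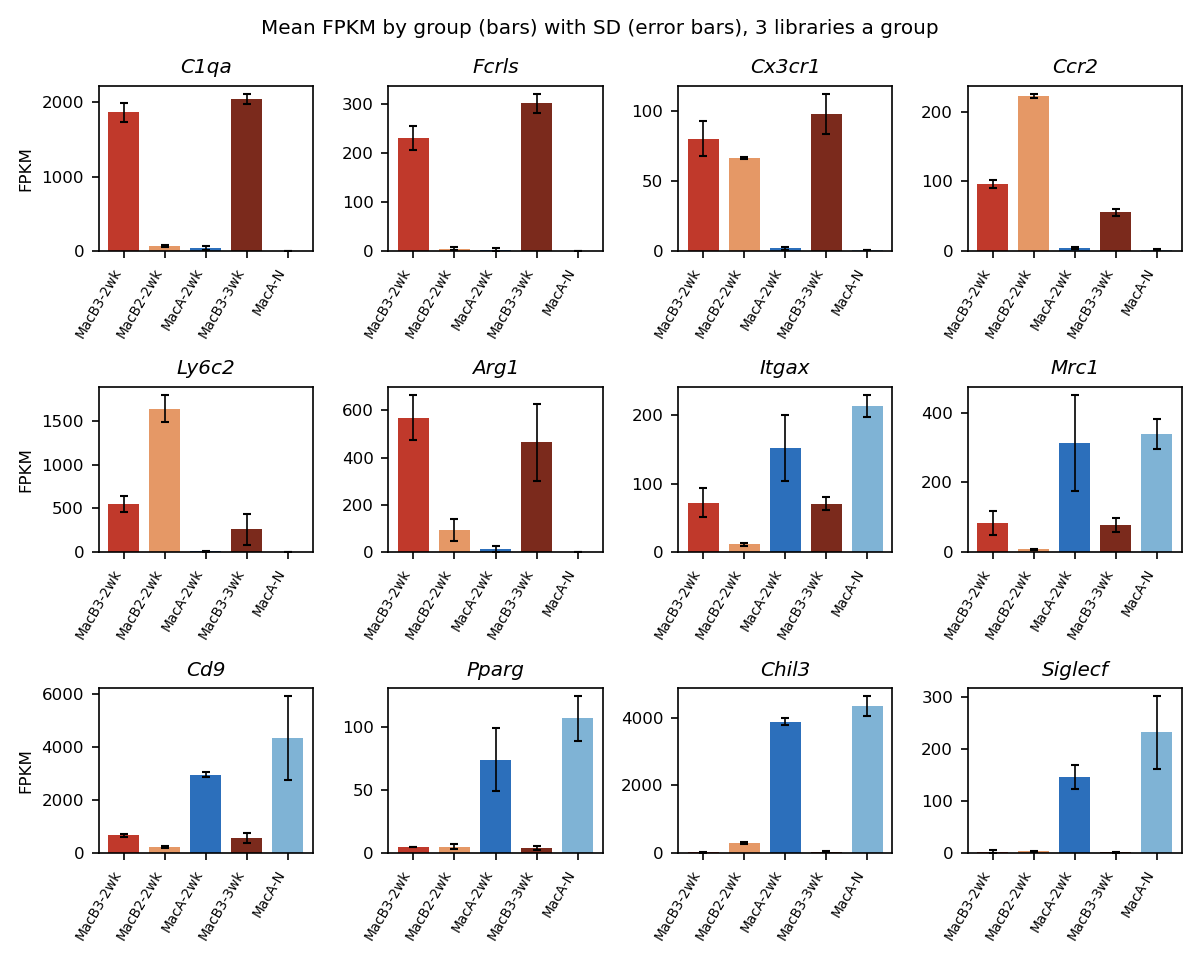
Mean FPKM (bars) and SD (error bars) of 12 genes in MacB3-2wk, MacB2-2wk, MacA-2wk, MacB3-3wk and MacA-N, with 3 libraries a group and a separate vertical axis for each gene. C1qa and Fcrls are high in both MacB3 groups, Ly6c2 and Ccr2 are highest in MacB2-2wk, and Pparg, Chil3, Cd9 and Siglecf are highest in the MacA groups.

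The MacA side was set against naive lung (MacA-N, all lobes of mice without tumour), again with shared libraries. MacA-2wk had 125 genes higher (0.729%) and 10 lower (0.0583%) than MacA-N. Of the 32 alveolar macrophage genes 0 were called in that comparison in limma, and 5 were lower in MacA-2wk at an unadjusted p under 0.05. C1qa and Arg1, both higher in MacB3-2wk than in MacA-2wk, were higher in MacA-2wk than in MacA-N at a low level. C1qa was at 39.6 ± 23.2 FPKM in MacA-2wk and 0.836 ± 0.442 FPKM in MacA-N (log2 fold change 4.27), far under the 1864 ± 122 FPKM of MacB3-2wk. Arg1 was at 13.1 ± 11.5 FPKM in MacA-2wk and 0.176 ± 0.240 FPKM in MacA-N (log2 fold change 3.30). Neither gene was called when only those 2 groups were fitted. MacA-2wk replicate 1 had the highest level of Arg1 and of C1qa among the MacA-2wk libraries. The source of these transcripts in MacA-2wk was not tested.

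The same pair of populations was also compared in libraries that the main comparison does not use, as MacB3-3wk against MacA-N. Only the group means are separate, since both comparisons took the spread from the same fit over all 24 libraries. This gave 1670 genes higher (9.73%) and 1217 lower (7.09%). Of the 1235 genes higher in MacB3-2wk than in MacA-2wk, 823 were also higher there, 66.64% of the 2-week list and 49.28% of the other, and 0 were lower. Of the 1249 lower genes, 789 were also lower, 63.17% of the 2-week list and 64.83% of the other, and 8 were higher. C1qa averaged 2048 ± 66.2 FPKM in MacB3-3wk and 0.836 ± 0.442 FPKM in MacA-N (log2 fold change 10.15, against 5.75 at 2 weeks). Fabp1 was listed at 0 in all 3 MacB3-3wk libraries and averaged 959.9 ± 521 FPKM in MacA-N. Serpinb2 was called at 2 weeks and not there (log2 fold change 1.77). In that comparison the groups also differ in tumour and in the lobes used, which cannot be told apart from the population. Lane was split as in the main comparison, with MacA-N on lane 1 and MacB3-3wk on lanes 2, 3 and 7. The shared calls therefore do not separate lane from population. Whether the 2 comparisons differ in size was not tested.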

How the data were processed

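Sorted lung macrophages were measured by total RNA sequencing (NuGen Ovation FFPE kit, per the labels' protocols). The deposited FPKM values were made by the authors with TopHat2 version 2 and Cufflinks 2.0.2 on mm10, after FastQC, per the submitters' processing notes. No source used here gives the strand setting of the counting, so antisense partners and near-identical copies cannot be separated. Values were taken as log2(FPKM + 1), and limma 3.58.1 (R 4.3.3) was fitted with 8 group means over all 24 libraries, two-sided and with a mean-variance trend, on genes with a mean of 1 FPKM in a group. In simulated data for MacB3-2wk against MacA-2wk, 200 genes were changed, all with a MacA-2wk mean above 2 on the log2 scale. At an adjusted p under 0.05 without the 2-fold minimum, limma recovered 34 of 100 genes changed by 2-fold and 79 of 100 changed by 4-fold. There were 12 false calls among 17156 genes, with or without that minimum. Far fewer genes were changed than were called in the data, so these shares are not the recovery of the calls reported here.

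Named genes are the 10 highest and 10 lowest fold changes among protein-coding genes that passed an adjusted p of 0.05, averaged at least 20 FPKM in the higher group and did not overlap between the groups' libraries. They also include up to 4 called members per list and direction with the smallest adjusted p, the gate markers, and Ccr2, Cx3cr1, Csf1r, Csf2ra, Pparg, Arg1, C1qa, C1qb, C1qc, Maf and Spi1, while uncalled list members may be given by value. Some genes that the rule names are not reported here. The members and lists were chosen with earlier results of these data known. Of 1090 list entries 1081 matched a gene in the table. Alternatives were another pseudocount, other filters, other scalings, only the 2 groups compared, a replicate block and leaving out each library. Groups followed the sample titles. The design text places MacB3 cells among those of week 2 too but writes their name as MacB3-3wk, as for week 3, so the week of the MacB3-2wk libraries rests on the titles. Counting lists without the sorting markers was added after the data were seen. Gene positions are those of GENCODE M21 (GRCm38), matched by Ensembl ID, and promoters those of RefSeq (GRCm38.p6).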

Additional observations from a re-analysis of the deposited data

How the results depend on the processing

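Between MacB3-2wk and MacA-2wk, 1082 to 1285 genes were higher and 1074 to 1402 lower when 1 library was left out. Equal protein-coding sums gave 2191 lower genes, since the rescaling lowers MacB3-2wk relative to MacA-2wk. Fitting only the 2 groups compared gave 471 genes lower in MacB3-2wk than in MacB2-2wk, and 1 higher and 2 lower between MacA-2wk and MacA-N, with fewer samples to estimate the spread. A pseudocount of 0.1 FPKM gave 225 genes higher in MacA-2wk than in MacA-N, for which the cause was not tested. With the replicate number as a block, 1219 genes were higher and 1247 lower in MacB3-2wk. Same-numbered libraries of the groups had deviations that correlated at 0.057, 0.012 and 0.046, all under 0.1. Differently numbered libraries ran from -0.069 to 0.029. The same-numbered MacA-2wk library correlated best with MacB3-2wk replicates 1 and 3, while MacB3-2wk replicate 2 correlated best with MacA-2wk replicate 3 (0.019). All values were small, and the numbers were not taken as pairs. Of the 242 genes named by rule and called, none changed sign under any of these settings. Calls were lost by 24 of them when only the 2 groups were fitted, 20 with equal protein-coding sums, 12 under quantile normalization, 4 with a pseudocount of 0.1 FPKM, 4 without a filter, 3 with the replicate block and 11 to 16 when 1 library was left out. Fitting only the 2 groups also gave 3 higher integrin genes, 2 higher iron and heme genes, 1 higher oxidant gene and 3 lower growth factor genes. Library depth is unknown, so precision rests on 3 pooled libraries a group, with all of MacA-2wk on 1 lane.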

Other observations

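Outside the protein-coding class, shares of called genes between MacB3-2wk and MacA-2wk lay near or under those over all genes tested, 7.2% higher and 7.28% lower. Of 443 long intergenic non-coding RNA genes 25 were higher (5.64%) and 21 lower (4.74%), and of 1554 pseudogenes 65 were higher (4.18%) and 115 lower (7.4%). Of 321 small nucleolar RNA genes 7 were higher (2.18%) and 4 lower (1.25%), and of 211 small nuclear RNA genes 6 were higher (2.84%) and 3 lower (1.42%). Genes annotated as miRNA, which took most of the FPKM sum in each library, gave 2 higher and 2 lower of 160 (1.25% each).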
